A study of Homo sapiens with 6 samples.

Results

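HYOU1, HSPA5 and 8 partners of HSPA5 in the endoplasmic reticulum (ER) were followed in cells in which HYOU1 had been knocked down. The 10 genes were chosen by name from the annotated table: HYOU1, HSPA5, SIL1, HSP90B1, DNAJC3, DNAJB11, DNAJB9, DNAJC10, SDF2L1 and MANF. They are 10 of 58735 genes in the table and 10 of the 12448 that had a mean of at least 1 FPKM (fragments per kilobase of gene, scaled to the size of the library) over the 6 libraries and were tested. RNA sequencing compared 3 libraries of cells with a control short hairpin RNA (shRNA) with 3 libraries of cells with an shRNA against HYOU1. The labels give no other treatment. All 6 are labelled Hep3B, a line established from a human hepatocellular carcinoma. The labels name neither the hairpin sequence, nor the number of hairpins or clones, nor the time after knockdown. They do not say whether replicates were separate cultures, so the p-values speak only of how far these libraries vary, which could be technical variation.

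HSPA5 encodes BiP, the HSP70 chaperone of the ER lumen, which binds unfolded segments of secretory proteins in an ATP-driven cycle. J-domain proteins (DNAJC3, DNAJB11, DNAJB9 and DNAJC10) bring clients to BiP and stimulate ATP hydrolysis, and nucleotide exchange factors (HYOU1 and SIL1) release ADP so that the client can leave. HSP90B1 is the HSP90 of the ER, SDF2L1 forms a complex with DNAJB11, and MANF binds the nucleotide-binding domain of BiP. The secretory load of the liver makes this system prominent in hepatocytes, and many of its genes are induced by the unfolded protein response through ER stress response elements.

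The upstream sequences of the 10 genes were searched because these elements are the known link between ER stress and their transcription. All 10 genes matched the RefSeq promoter table (GRCh38.p14), and the 250 bases before each start were read. Exact matches on both strands were counted for the element ERSE (CCAAT, any 9 bases, then CCACG), for ERSE-II (ATTGG, any 1 base, then CCACG) and for the core of the UPRE (TGACGTG). Capitals mark the fixed letters of a match, on whichever strand, and each stretch reads 5′ to 3′ on the strand of its gene. The HYOU1 stretch is at chr11:119057259-119057408 and that of HSPA5 at chr9:125241376-125241424, both on the minus strand. On the plus strand are those of HSP90B1 at chr12:103930201-103930354, SDF2L1 at chr22:21642099-21642139 and DNAJC10 at chr2:182716118-182716154.
HYOU1: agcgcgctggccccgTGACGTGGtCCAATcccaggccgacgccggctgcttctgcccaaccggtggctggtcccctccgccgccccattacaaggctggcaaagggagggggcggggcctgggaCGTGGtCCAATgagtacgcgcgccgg
HSPA5: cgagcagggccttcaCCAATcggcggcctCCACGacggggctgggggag
HSP90B1: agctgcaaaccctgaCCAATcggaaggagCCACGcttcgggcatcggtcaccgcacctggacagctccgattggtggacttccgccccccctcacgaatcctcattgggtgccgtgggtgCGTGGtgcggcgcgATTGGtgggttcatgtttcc
SDF2L1: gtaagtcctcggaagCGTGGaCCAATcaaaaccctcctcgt
DNAJC10: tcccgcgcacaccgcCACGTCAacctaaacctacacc

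HSPA5 held 1 ERSE at bases -66 to -48 from the start, and HSP90B1 held 2, at -194 to -176 and -89 to -71. HYOU1 held 2 ERSE-II, at -185 to -175 and -79 to -69, the first of which overlaps a UPRE core at -188 to -182. SDF2L1 held 1 ERSE-II and DNAJC10 1 UPRE core. No match was found in this window for SIL1, DNAJC3, DNAJB11, DNAJB9 or MANF. Among 27305 promoters of the same length, 0.0806% held an ERSE, 0.0513% an ERSE-II and 1.71% a UPRE core. Among the 8754 promoters of tested genes these shares were 0.126%, 0.126% and 2.23%. A match is a run of letters and not a measured binding site.

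The libraries held 16893091 to 18233240 fragments each, recovered from the deposited values. Control replicate 1 stood apart. Its log2 difference from the mean of the other controls had a median of 0.76 among the 10% of tested genes with the lowest GC content and of -1.0 among the 10% with the highest. Fold changes of the 10 genes are therefore also given without this library and after a correction for GC content, while levels, shares and ratios are given per library with no such correction. The defining hepatocyte markers were mostly missing: of 21, only HNF4A and CPS1 reached a mean of 1 FPKM, and ALB, APOB, TTR, APOH and APOA2 were at 0 in every library. AFP had 3 fragments in all 6 libraries together. Hep3B is known to make albumin and alpha-fetoprotein, and the identity of the line was not tested. Of 10 biliary and general epithelial markers, 8 reached 1 FPKM, KRT8 and KRT18 among them. Of 12 fibroblast and stellate markers 6 did, and none of 15 immune or 10 endothelial markers did.

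Summed marker levels also moved with the groups. The hepatocyte sum ranged from 178.6 to 227 FPKM in controls and from 49.7 to 51.9 with HYOU1 shRNA, nearly all of it CPS1. The epithelial sum went from 368 to 569 in controls to 665 to 768, and the fibroblast sum from 92.5 to 109 to 137 to 142. The epithelial sum was mostly KRT8 and KRT18, and the fibroblast sum mostly VIM. Single markers did not all move with their sum. On the fibroblast list VIM, COL1A1 and DES were higher in every knockdown library than in any control, and DCN and PDGFRB lower. Fragments of mitochondrial genes made up 4.96% to 7.59% of control libraries and 3.39% to 3.84% of knockdown libraries. The part of these differences in the results on the 10 genes was not tested. In bulk RNA, fewer cells of a type and less RNA per cell cannot be told apart.

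With HYOU1 shRNA, 9 of the 10 transcripts were at a lower mean level and 1, DNAJB9, at a higher one. In the fit with all 6 libraries, 4 fell: HYOU1, HSPA5, DNAJC3 and DNAJB11 (limma, adjusted p under 0.05). None rose. Among all tested genes 5.66% fell and 6.60% rose. At an unadjusted p under 0.05, 8 members were lower and none higher, where 14.6% and 17.0% of all genes were. With voom on recovered fragments 6 fell and none rose, against 6.60% and 7.91% of all genes. Leaving out any one HYOU1 shRNA library left 2 members past the threshold, HYOU1 and HSPA5. The share of all tested genes that fell was then 0.578%, 0.378% and 0.217% without replicate 1, 2 and 3. Without control replicate 1, 9 of the 10 fell and DNAJB9 rose, where 19.7% of all tested genes fell and 24.6% rose. The same count, 9 falls and 1 rise, was found after the GC correction, where 20.2% of all genes fell and 20.4% rose. In 8 of the 10 all knockdown libraries lay below all controls, against 20.6% of all tested genes, and in none did they lie above, against 23.8%. The median log2 fold change of the 10 was -0.93, and that of all tested genes 0.04. The 10 genes were picked with results of these libraries known, so their count is not independent evidence of a direction.

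**Figure D1:**
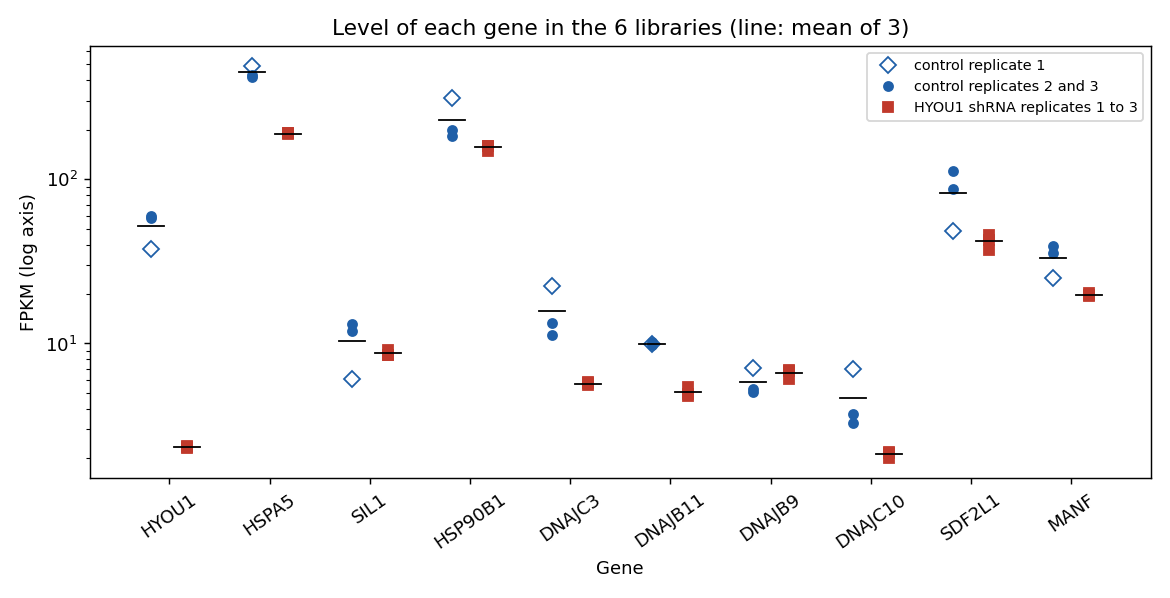
FPKM (log axis) of each gene in the 3 control libraries (blue, control replicate 1 as an open diamond) and the 3 HYOU1 shRNA libraries (red squares), with a line at each mean. The knockdown libraries lie below every control for all genes but SIL1 and DNAJB9, and control replicate 1 is high or low depending on the gene.

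HYOU1 (ENSG00000149428, chromosome 11, 119044189 to 119057202, minus strand, GRCh38), the target of the hairpin, belongs to the HSP110 branch of the HSP70 family and is an exchange factor for BiP and a holdase for unfolded chains. It had 37.6, 58.2 and 59.5 FPKM in control replicates 1 to 3 and 2.35, 2.32 and 2.37 in the knockdown replicates. HYOU1 levels thus matched the hairpin label of all 6 libraries, with every knockdown library far below every control and the 3 knockdown values nearly equal. The knockdown level was 4.54% of the control mean, a log2 fold change of -4.38 ± 0.20 (SE, limma, adjusted p = 0.00119). It was -4.59 without control replicate 1 and -4.52 with the GC correction (adjusted p = 3.32e-08 and 2.19e-06). What remained rested on 319 to 328 fragments per library, which gives exact Poisson 95% intervals from 2.08 to 2.64 FPKM. Such intervals cover counting error only. The transcript was therefore reduced and still measurable in every knockdown library. It was rank 3 of 12448 among the largest falls.

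HSPA5 (ENSG00000044574, chromosome 9, 125234853 to 125241330, minus strand) had the highest FPKM of the 10 in both groups, with the deposited gene lengths. It measured 492, 418 and 430 FPKM in the controls and 190.4, 187 and 189.8 with HYOU1 shRNA. The knockdown libraries lay close together and far below the lowest control. The log2 fold change was -1.24 ± 0.10 (SE, limma, adjusted p = 0.00324), which left 42.3% of the control level. HSPA5 was past the threshold under all 19 alternatives, between -1.38 and -1.16, and at -1.16 in both the fit lacking control replicate 1 and the GC-corrected one. Its rank by level among tested genes moved from 51 in controls to 173.

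SIL1 (ENSG00000120725, chromosome 5, 138946720 to 139293557, minus strand), the other exchange factor of BiP, was at 6.08, 11.9 and 13.2 FPKM in controls and at 8.54, 9.12 and 8.48 with HYOU1 shRNA. The knockdown values fell between control replicate 1 and the other controls, so the groups overlapped. The log2 fold change was -0.17 ± 0.29 (SE, limma, adjusted p = 0.706). Without control replicate 1 it was -0.52 ± 0.08 (adjusted p = 0.00134), after the GC correction -0.42 (adjusted p = 0.0337), and without control replicate 3 it was 0.036. SIL1 was thus past the threshold without control replicate 1 or with the GC correction, and not in the uncorrected fit of all 6 libraries. SIL1 shares 118 exon bases with SNHG4, at 8.55 FPKM, on the other strand.

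HSP90B1 (ENSG00000166598, chromosome 12, 103930107 to 103953645, plus strand) folds receptors and secreted proteins downstream of BiP. It was at 311, 198.6 and 182 FPKM in controls and at 158.7, 160.2 and 149.1 with HYOU1 shRNA. The groups did not overlap, but control replicate 1 was far above the other controls. The log2 fold change was -0.52 ± 0.21 (SE, limma, adjusted p = 0.143). Without control replicate 1 it was -0.29 ± 0.07 (adjusted p = 0.00866) and after the GC correction -0.38 ± 0.07 (adjusted p = 0.00585). HSP90B1 shares 121 exon bases with C12orf73, at 3.88 FPKM, on the other strand.

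Of the 4 J-domain members, 2 fell, 1 missed the threshold with a lower mean and 1 had a higher mean. DNAJC3 (ENSG00000102580, chromosome 13, 95677139 to 95794989), a soluble co-chaperone also known as an inhibitor of the kinase PERK, was at 22.4, 13.3 and 11.3 FPKM in controls and at 5.72, 5.80 and 5.58 in the knockdown. The knockdown libraries were nearly equal and all below the lowest control. It fell, with a log2 fold change of -1.38 ± 0.25 (SE, limma, adjusted p = 0.0223). The limma call was lost without control replicate 2 (adjusted p = 0.0634), without HYOU1 shRNA replicate 1, 2 or 3 (adjusted p = 0.106, 0.104 and 0.108) and without a filter (adjusted p = 0.0529), while the log2 fold change in these fits stayed between -1.47 and -1.37. With control replicate 1 left out the change was -1.09 (adjusted p = 7.41e-05), and after the GC correction -1.21 (adjusted p = 0.000255).

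DNAJB11 (ENSG00000090520, chromosome 3, 186567403 to 186585800), which binds clients directly and hands them to BiP, was at 9.97, 9.72 and 10.2 FPKM in controls and at 5.42, 4.95 and 4.76 in the knockdown. Its controls were the tightest of the 10, control replicate 1 included. It fell by 0.97 ± 0.12 on the log2 scale (SE, limma, adjusted p = 0.00808) and by the same amount without control replicate 1. After the GC correction the fall was 0.78, with a larger SE of 0.19 (limma, adjusted p = 0.0189). Without HYOU1 shRNA replicate 1, 2 or 3 the change was -1.02, -0.96 and -0.93, with an adjusted p of 0.0541, 0.0704 and 0.0712. DNAJB11 shares 381 exon bases with TBCCD1, at 4.55 FPKM, on the other strand. The sources used here do not state if the counting was stranded.

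DNAJC10 (ENSG00000077232, chromosome 2, 182716041 to 182794464), a disulfide reductase with a J domain that unfolds proteins for degradation, was at 6.96, 3.72 and 3.30 FPKM in controls and at 2.15, 2.18 and 2.00 in the knockdown. All knockdown values were below all controls, and the controls themselves spanned a wide range. The log2 fold change of -1.03 ± 0.28 (SE, limma, adjusted p = 0.0633) was not past the threshold, which it passed without control replicate 1 at -0.71 ± 0.12 (adjusted p = 0.00217), with the GC correction at -0.83 (adjusted p = 0.00141) and with voom on the recovered fragments (adjusted p = 0.0457). Its deposited gene length of 21835 bases is the longest of the set.

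DNAJB9 (ENSG00000128590, chromosome 7, 108569568 to 108574850), a J-domain protein known to restrain the stress sensor IRE1 and to be induced through XBP1, was the member with a higher mean in the knockdown. It was at 7.10, 5.25 and 5.07 FPKM in controls and at 6.87, 6.04 and 6.81 in the knockdown. Control replicate 1 was above all knockdown libraries and the other controls were below them all. The log2 fold change was 0.19 ± 0.17 (SE, limma, adjusted p = 0.467). It rose when control replicate 1 was left out, at 0.34 ± 0.09 (adjusted p = 0.0170), and after the GC correction, at 0.35 ± 0.09 (adjusted p = 0.0190). It had 258 to 349 fragments per library, the fewest of the set in every control. DNAJB9 shares 183 exon bases with THAP5, at 4.09 FPKM, and 99 with PNPLA8, at 8.83 FPKM, both on the other strand.

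SDF2L1 (ENSG00000128228, chromosome 22, 21642261 to 21644298), which keeps clients soluble with DNAJB11, was at 48.2, 86.9 and 111.9 FPKM in controls and at 37.2, 42.6 and 45.9 in the knockdown. Control replicate 1 was only just above the highest knockdown library. The log2 fold change of -0.90 ± 0.30 (SE, limma, adjusted p = 0.1001) did not pass, and became -1.24 ± 0.13 without control replicate 1 (adjusted p = 0.000787) and -1.38 ± 0.09 after the GC correction (adjusted p = 0.000172).

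MANF (ENSG00000145050, chromosome 3, 51385047 to 51389397), which prolongs the contact of BiP with its clients and is also secreted, was at 25.003, 35.7 and 39.3 FPKM in controls and at 19.3, 19.7 and 20.2 in the knockdown. The groups did not overlap. Its log2 fold change of -0.73 ± 0.18 (SE, limma) missed the threshold at an adjusted p of 0.0503. MANF passed it without control replicate 1, at -0.92 ± 0.07 (adjusted p = 4.67e-05), and after the GC correction, at -0.77 ± 0.11 (adjusted p = 0.00238). With all 6 libraries it also passed with voom (adjusted p = 0.0427), quantile normalization (0.0247), a pseudocount of 1 (0.0491), a filter at 5 FPKM (0.0497) and protein-coding genes alone (0.0422).

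**Figure D2:**
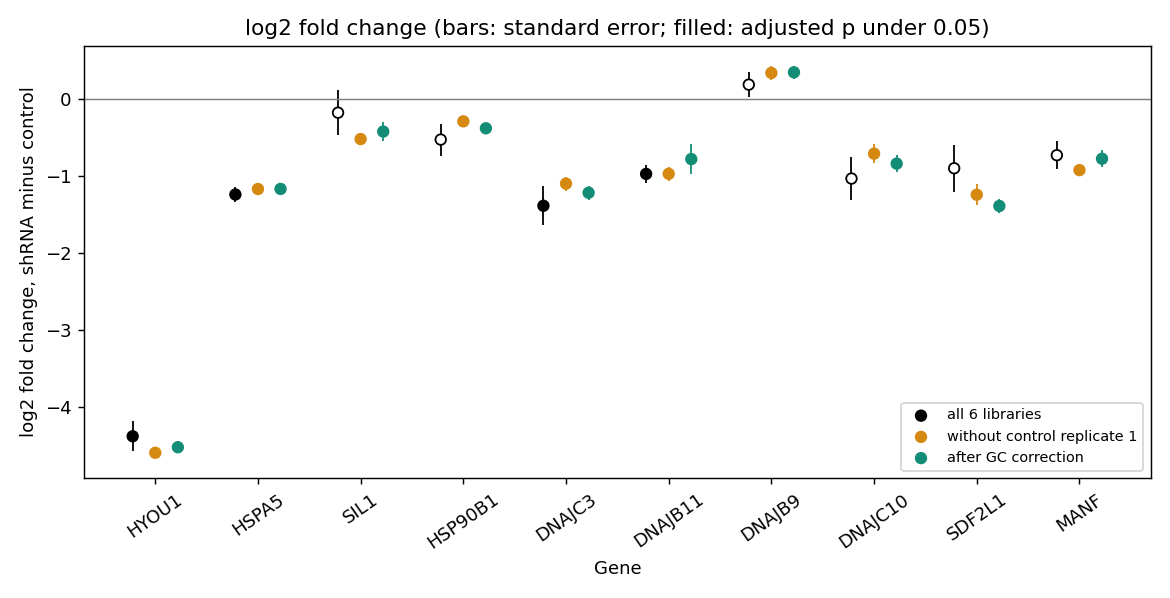
log2 fold change of each gene (HYOU1 shRNA minus control, with its standard error) with all 6 libraries (black), without control replicate 1 (orange) and after the GC correction (green), filled where the adjusted p was under 0.05. With all libraries 4 genes are past the threshold and in the other fits 10 are, DNAJB9 alone with a positive value.

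How a gene of the set behaved in control replicate 1 followed its GC content. Relative to the mean of the other controls, DNAJC10, DNAJC3, HSP90B1 and DNAJB9, with transcripts of 37.4% to 41.2% GC, were higher there by 0.97, 0.86, 0.71 and 0.45 on the log2 scale. SDF2L1 at 65.5% GC and SIL1 at 58.5% were lower, both at -1.03, HYOU1 was at -0.64 and MANF at -0.58. HSPA5, with 46.0% GC, differed by 0.21. DNAJB11 stood off this order, with 37.8% GC and a deviation of 0.004. Over the 10 genes Pearson's r was -0.91 and over 12442 tested genes -0.71, a description across genes that share the same libraries. Leaving out this library thus gave larger falls for HYOU1, SIL1, SDF2L1 and MANF, and smaller ones for HSPA5, HSP90B1, DNAJC3 and DNAJC10. Whether GC content was the cause was not tested.

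**Figure D3:**
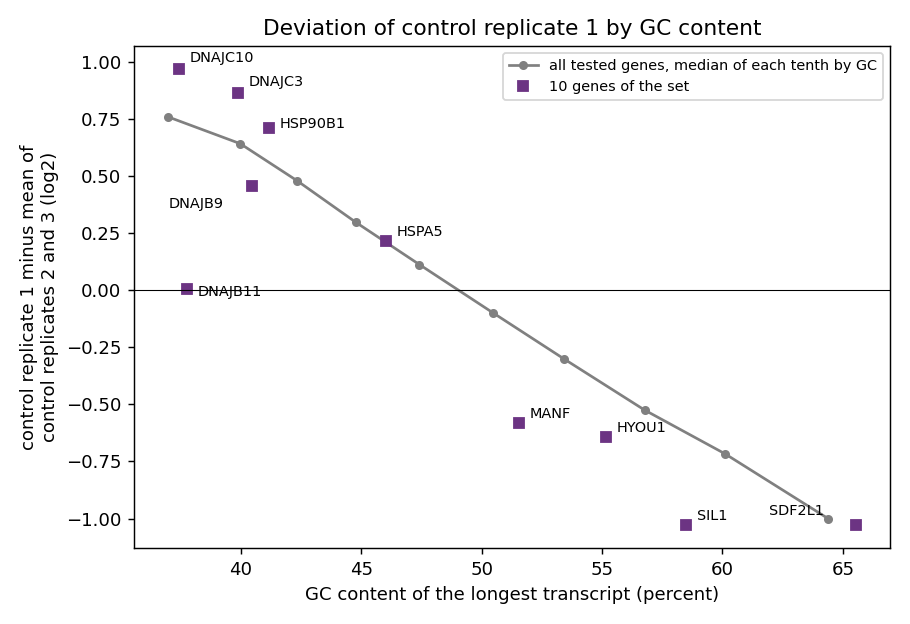
Deviation of control replicate 1 from the mean of control replicates 2 and 3 (log2) against the GC content of the longest transcript, for the 10 genes (purple) and as medians of 10 groups of all tested genes by GC content (grey). The points of the set lie from 0.97 for DNAJC10 to -1.03 for SDF2L1 and SIL1, and DNAJB11 lies near 0 at low GC content.

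Levels compared per length gave the order of the set. In controls the mean FPKM was highest for HSPA5 at 447 ± 39.5 (SD, n = 3), then HSP90B1 at 230.6 ± 70.3, SDF2L1 at 82.4 ± 32.1, HYOU1 at 51.8 ± 12.3 and MANF at 33.3 ± 7.45. Lower down were DNAJC3 at 15.7 ± 5.92, SIL1 at 10.4 ± 3.77, DNAJB11 at 9.95 ± 0.219, DNAJB9 at 5.81 ± 1.13 and DNAJC10 at 4.66 ± 2.00. SDF2L1 and HYOU1, HYOU1 and MANF, DNAJC3 and SIL1, SIL1 and DNAJB11, and DNAJB9 and DNAJC10 overlapped in their ranges, and the other neighbours did not. With HYOU1 shRNA no neighbours overlapped, and HYOU1, at 2.35 ± 0.0250, had moved from the fourth place to the ninth, above DNAJC10 at 2.11 ± 0.0976. DNAJB9, at 6.58 ± 0.461, then stood above DNAJC3 at 5.70 ± 0.112 and DNAJB11 at 5.04 ± 0.340. The order depended on the length used. Per length of the principal transcript, an alternative chosen after seeing the data, HSP90B1 (256 fragments per kilobase, scaled in the same way) exceeded HSPA5 (189) in the knockdown, and DNAJB11 (12.0) exceeded DNAJB9 (6.87) and DNAJC3 (5.70).

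The summed FPKM of the 10 genes was 966, 842 and 866 in the controls and 437, 440.1 and 435 in the knockdown. Without HYOU1 the sum of the other 9 was 929, 784 and 806 against 434, 438 and 433. The total was therefore lower in every knockdown library than in any control, and HSPA5 was its largest component in all 6 with the deposited gene lengths, though not in the knockdown with principal transcript lengths. HSPA5 made up 50.1% ± 0.697 of the set in controls and 43.2% ± 0.630 with HYOU1 shRNA (SD, n = 3 each). HSP90B1 went from 25.6% ± 5.85 to 35.7% ± 1.22 and HYOU1 from 5.89% ± 1.73 to 0.537% ± 0.00888. For these shares the groups did not overlap. SDF2L1 held 9.42% ± 4.05 and 9.58% ± 1.03, with overlapping groups. Exact permutation tests (two-sided, 3 against 3) on 31 such sums, shares and ratios cannot go below 0.10, which every quantity without overlap reached (adjusted p = 0.148).

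Ratios within a library, with the deposited gene lengths, set the partners against BiP. Their size depends on the length used: with principal transcript lengths HSP90B1 (256) exceeded HSPA5 (189) in the knockdown. There were 13.1, 7.19 and 7.23 HSPA5 per HYOU1 (ratio of FPKM) in the controls and 80.9, 80.6 and 80.1 in the knockdown. SIL1 went from 0.161, 0.204 and 0.221 to 3.63, 3.93 and 3.58 per HYOU1. The less abundant exchange factor in every control was thus the more abundant one in every knockdown library. Together, HYOU1 and SIL1 made 8.89, 16.7 and 16.9 per 100 HSPA5 in the controls and 5.72, 6.11 and 5.72 in the knockdown. The 4 J-domain members summed to 9.45, 7.65 and 6.95 per 100 HSPA5 in controls and to 10.6, 10.1 and 10.1 in the knockdown, where DNAJB9 made up 33.8% ± 1.87 of them against 16.2% ± 0.854 (SD, n = 3 each). HSP90B1 per HSPA5 was 0.633, 0.475 and 0.424 against 0.834, 0.856 and 0.786. MANF per 100 HSPA5 was 5.08, 8.53 and 9.15 against 10.1, 10.5 and 10.7. In each of these ratios the groups did not overlap (exact permutation p = 0.10, the smallest possible). SDF2L1 per 100 HSPA5 was 9.81, 20.8 and 26.0 against 19.5, 22.8 and 24.2, and the groups overlapped (exact permutation p = 0.70).

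**Figure D4:**
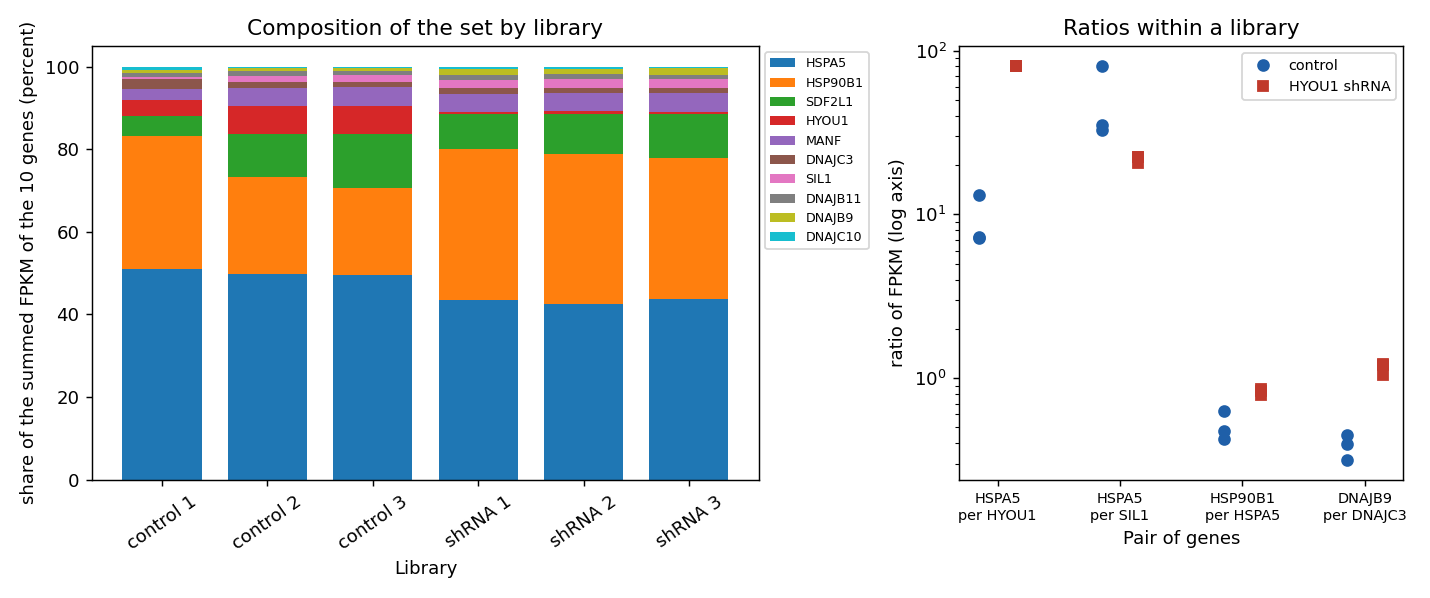
Left, the share of each gene in the summed FPKM of the set in each library. Right, ratios of FPKM within a library (log axis), 3 control libraries in blue and 3 HYOU1 shRNA libraries in red: HSPA5 per HYOU1 is 7.19 to 13.1 in controls and 80.1 to 80.9 in the knockdown.

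Of the genes outside the set, those most like HSPA5 over the 6 libraries were CPS1, SLC9A8 and HGSNAT, with Pearson's r of 0.9996, 0.9994 and 0.9992 on log2 values. CPS1, the first enzyme of the urea cycle, was at 223, 173 and 175 FPKM in controls and at 49.2, 48.5 and 47.0 in the knockdown. In the set, DNAJB11 (0.988), HYOU1 (0.977) and DNAJC3 (0.955) were nearest, and 123 tested protein-coding genes were closer to HSPA5 than DNAJB11 was. SIL1 and DNAJB9 were at 0.13 and -0.41. As the 6 libraries form 2 groups, the difference between the groups enters every one of these values.

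Lists of other genes are read against the shares of all tested genes given above, 5.66% lower and 6.60% higher, or 19.7% and 24.6% without control replicate 1. Their limma calls changed with the libraries used. Leaving out any one HYOU1 shRNA library left no limma call in 5 lists (ER folding enzymes, unfolded protein response, ER-associated degradation, translocon, and cytosolic and mitochondrial chaperones and their regulators). In those fits the share of all genes that rose at the adjusted threshold was 0.434%, 0.305% and 0.177%. At an unadjusted p under 0.05, 24 to 26 of the 147 tested genes of these lists were then lower and 13 to 15 higher. The unadjusted shares of all genes are not given for those fits, so these counts are not read as an excess. With all 6 libraries the unadjusted shares were 14.6% lower and 17.0% higher. Leaving out control replicate 2 left 2 falls and 3 rises in these lists, where 1.21% of all genes fell and 1.65% rose.

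Other ER members of these families were counted for comparison. The list held 8 tested genes, for further ER HSP70 and J-domain proteins and for SDF2, which is neither. None was called with limma in either direction, 1 was lower at an unadjusted p under 0.05 and 1 with voom. HSPA13, an atypical HSP70 of the ER, was at 15.96 ± 5.69 and 16.9 ± 0.510 FPKM, and DNAJB12, a membrane J-domain protein, at 10.2 ± 2.57 and 8.25 ± 0.295 (SD, n = 3 each). Their median log2 fold change was -0.17. Leaving out control replicate 1, DNAJB12 and DNAJC16 fell by 0.50 and 0.61 and HSPA13 rose by 0.41.

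Among 41 tested genes of other ER chaperones and folding enzymes, 8 fell and 1 rose, with a median of -0.19. RCN2, a calcium-binding protein, fell by 1.07, UGGT1, which tags misfolded glycoproteins for another round of folding, by 0.88, and CNPY2 by 0.87 (limma, adjusted p = 0.0390, 0.00995 and 0.0223). The gene that rose was PDIA5, a disulfide isomerase, by 0.86 (adjusted p = 0.0118), named after its value was seen. When control replicate 1 was left out, 20 fell and 7 rose.

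Of 25 tested sensors and factors of the unfolded protein response, 3 fell and 2 rose, with a median of -0.09. CREB3L3, a membrane-bound factor of hepatocytes, was at 0.759 ± 0.212 FPKM in controls and 2.89 ± 0.306 in the knockdown (SD, n = 3 each). Its control mean lay under the filter of 1 FPKM, so it was tested only through the group where it was high, and its call is not read as support. CREB3L2, a related factor, fell by 0.75, and NFYC, a subunit of the factor that binds CCAAT, by 0.70 (limma, adjusted p = 0.0173 and 0.0340). The other calls, named after their values were seen, were ATF3, a stress-induced factor, which rose by 0.62, and MBTPS1, the protease that cleaves ATF6, which fell by 0.49. Of 28 genes of ER-associated degradation 4 fell, NPLOC4 by 1.15, SEL1L, an adaptor of the HRD1 ligase, by 0.91, DERL2 by 0.72 and VCP, the ATPase that works with NPLOC4, by 0.67. With voom 4 fell, and none rose with limma or with voom. At an unadjusted p under 0.05, 5 were lower and 2 higher, against 14.6% and 17.0% of all genes. Of 16 translocon genes 2 fell with limma, SSR1 by 1.07 and SEC61B by 0.77, and 3 fell with voom. At an unadjusted p under 0.05, 7 were lower. None rose, at an adjusted or an unadjusted p under 0.05 or with voom. With control replicate 1 left out, 9 factors of the unfolded protein response fell and 8 rose. The falls include CHAC1, named after its value was seen, at 1.83 FPKM in controls and 0.695 in the knockdown. The rises include CREB3L3. Each of these genes passed the filter only through the group where it was high, and neither call is read as support. Without control replicate 1 the counts were 7 and 3 in the degradation list and 7 and 1, the latter SSR3, in the translocon list.

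The list of HSP70, HSP110 and HSP90 machinery of the cytosol and mitochondria was at a higher median, 0.32. It also holds HSPD1, HSPE1, HSPB1, HSF1 and HSF2, which are outside these families, and its counts include them. Of 37 tested members 6 rose with limma and 8 with voom, and none fell with either. At an unadjusted p under 0.05, 1 was lower and 12 higher, against 14.6% and 17.0% of all genes. HSPA1B and HSPA1A, near-identical inducible HSP70 copies whose reads may be shared, rose by 1.33 and 1.25, and DNAJB1, their J-domain partner, by 0.75 (limma, adjusted p = 0.0143, 0.0257 and 0.00995). Leaving out control replicate 1, 23 rose and 1, HSPA14, fell. HSPH1, a cytosolic HSP110 relative of HYOU1, was at 22.5, 13.8 and 12.4 FPKM in controls and at 24.6, 24.5 and 23.1 with HYOU1 shRNA. Its change of 0.61 was not past the threshold with all libraries (limma, adjusted p = 0.125), and was past it without control replicate 1, at 0.87 (adjusted p = 7.41e-05). HSPA4 differed by 0.20 and HSPA4L by -0.39, neither past the threshold with all libraries (adjusted p = 0.462 and 0.334). HSPA4 was past it without control replicate 1, at 0.38 (adjusted p = 0.00182), and with the GC correction, at 0.32 (adjusted p = 0.00460).

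**Figure D5:**
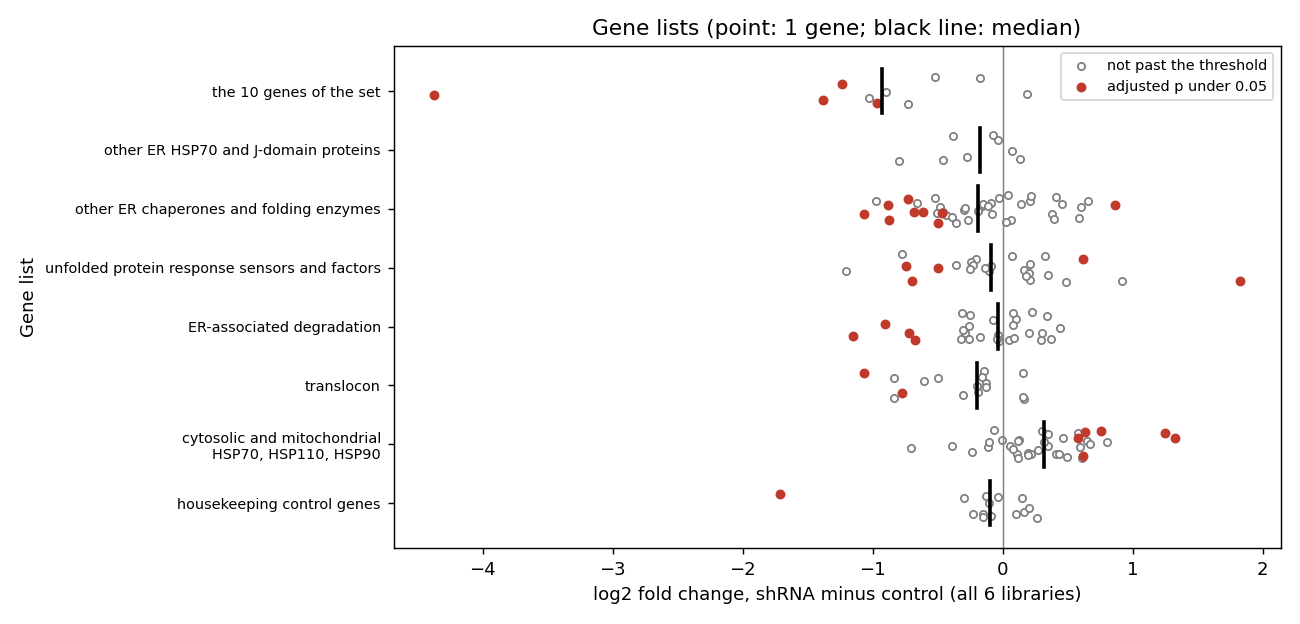
log2 fold change (HYOU1 shRNA minus control, all 6 libraries) of each tested gene by list, red where the adjusted p was under 0.05, with a black line at the median. The median is -0.93 in the set of 10, between -0.19 and -0.04 in the other ER lists, 0.32 in the cytosolic and mitochondrial list and -0.10 in the housekeeping list.

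Of 14 housekeeping genes, 1 fell, TFRC, with all 6 libraries, and the median was -0.10. None rose in that fit, at an adjusted or an unadjusted p under 0.05 with limma or with voom. At an unadjusted p under 0.05, 1 was lower, and 1 fell with voom. Without control replicate 1, 2 fell and 2 rose, against 19.7% and 24.6% of all genes. Of the 11 tested genes with an ERSE in the 250 bases before the start, 1 fell and 1 rose. That is 9.09% each against 5.66% and 6.60% of all genes, and no direction is read from 1 gene each way. These 11 come from the 8754 tested genes with a promoter, while the shares of all genes are over 12448. HSPA5 fell, SERP1, which stabilises membrane proteins of the ER under stress, rose by 0.88 (limma, adjusted p = 0.00771), and 9 did not pass. After leaving out control replicate 1, 6 of the 11 fell, HSPA5 and HSP90B1 among them, and 4 rose, namely SERP1, TMEM120A, EIF2A and XBP1, which is 54.5% and 36.4% against 19.7% and 24.6% of all genes. With the GC correction 6 fell and 3 rose, 54.5% and 27.3% against 20.2% and 20.4% of all genes, and XBP1 did not pass (limma, adjusted p = 0.0952). SERP1 and the genes named with it were chosen after their values were seen.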

How the data were processed

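The authors deposited 1 table of FPKM values for 58735 genes, with gene lengths. The aligner, counter and build were not given in the sources used here. Per the labels' protocols, polyadenylated RNA was captured with oligo(dT) and primed with random hexamers. All 58735 identifiers, starts, ends and strands matched GENCODE 29 (GRCh38).

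FPKM times length came in whole multiples of 1 step per library (tolerance 0.01), which gave back the fragments. A floor of 3 fragments was worth 0.160 to 0.176 FPKM at 1 kb. Values were taken as log2(FPKM + 0.1), so fold changes of weak genes are understated. The comparison used limma 3.58.1 (R 4.3.3) on genes averaging 1 FPKM or more (trend and robust priors, two-sided), with Benjamini-Hochberg adjustment over 12448 genes and a threshold of 0.05. The fit was tried on simulated libraries with the spread of the knockdown replicates and none that deviated as control replicate 1 does. That trial therefore does not cover the calls in these data. The GC correction removed a lowess trend (span 0.3) against GC content, taken from each gene's longest GENCODE transcript. voom was run on recovered fragments.

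The members, lists and tests were chosen with earlier results of these data known. Named by rule are all 10 members, in each list up to 3 called genes with the largest change or the 2 highest where none was called, the 3 genes most like HSPA5, and HSPA4, HSPA4L and HSPH1. VCP, DNAJC16, SSR3, HSPA14, single cell type markers and the genes so marked above were named after their values were seen. Lists are described by counts and medians. The labels name no batch.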

Additional observations from a re-analysis of the deposited data

How the results depend on the processing

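Across 19 alternatives the direction of each member held, except that SIL1 changed sign without control replicate 3 (0.036). HYOU1 and HSPA5 passed the threshold in all 19. The number of members that fell was 4, and was 9 after the GC correction, 9 with the GC correction and the replicate block, and between 2 and 9 when 1 library was left out (2 without any one HYOU1 shRNA library, 9 without control replicate 1). It was 6 with voom, 5 with a pseudocount of 1, a filter at 5 FPKM, quantile normalization or protein-coding genes alone, 3 without a filter, and 4 under the other alternatives with all libraries. The number that rose was 0, and was 1 with the GC correction, with or without the replicate block, and from 0 to 1 on leaving out a library. Of all 12448 tested genes 704 fell and 822 rose. These became 727 and 884 with a pseudocount of 1, 770 and 743 with quantile normalization and 821 and 985 with voom. They were 2513 and 2535 after the GC correction, 2222 and 2282 with the GC correction and the replicate block, and 415 and 525 with the replicate block alone. Other alternatives changed the genes tested. The counts were 337 and 433 of 30059 genes without a filter. With a filter at 5 FPKM, where DNAJC10 was not tested, they were 413 and 525, and 722 and 864 among protein-coding genes alone. The number tested in the last 2 fits is not given here, so their shares cannot be read. Leaving out 1 library gave 27 to 2456 falls and 22 to 3062 rises, lowest without HYOU1 shRNA replicate 3 and highest without control replicate 1. SIL1 ranged from -0.52 without control replicate 1 to 0.036 without control replicate 3. Same-numbered control and HYOU1 shRNA libraries correlated in their deviations at 0.12, -0.093 and 0.17, and not every library correlated best with its own number. These deviations are from group means that include control replicate 1, so they cannot tell whether same-numbered libraries were paired. Counting error at the lowest library was 5.60% for HYOU1 and 6.23% for DNAJB9.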
